A study of Zea mays with 9 samples.

Results

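The genes described here are 85 of 110028 maize gene models that were highest in whole kernels at 2 days after pollination (DAP). They were chosen by their measured values: v, the read count of a model as CPM (counts scaled to a common library size, here by TMM), had to be highest at 2 DAP among 8 stages and to reach 10 there, and v + 1 at 2 DAP had to be at least 4 times the median over the stages plus 1. Their rise to 2 DAP is therefore what selected them, and every value across stages below is a description without a test. The plants were of the inbred B73, the genotype of the maize reference genome, raised under glass and selfed. Whole kernels represented 0 DAP (unpollinated), 2, 3, 4 and 6 DAP, and endosperm cut free of embryo and pericarp represented 8, 10 and 12 DAP. Each stage was 1 biological sample, sequenced once, except that the 0 DAP sample gave technical replicates a and b, whose counts were summed. The libraries held 17716275 to 40145710 counted reads. With 1 sample per stage no p-value is given, and the 95% intervals of ratios are exact binomial intervals that cover counting error only.

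In cereals the endosperm begins as a multinucleate cell whose nuclei divide without walls, and in the first days the maternal nucellus and pericarp make up most of the kernel. Dividing cells draw on histones to package new DNA and on kinesins, motor proteins that move along microtubules, for spindles and new cell walls. In a whole kernel, fewer cells of a type and less RNA per cell cannot be told apart. Markers of the maternal kernel tissue were present at 2 DAP: all 5 matched members of that list were above 1, and their summed v lay between 1221 and 1654 at the whole-kernel stages and between 126 and 274 in dissected endosperm. The 3 matched embryo sac markers had no read at 2 DAP. Their summed v was only 0.32 in unpollinated kernels, so the lack of reads at 2 DAP says little. Of 9 matched pollen markers 7 had no read at 2 DAP. The only one above 1, rop2, had v of 96.3 there and already 65.9 in unpollinated kernels. Of 6 matched embryo markers 4 had no read at 2 DAP. The dissected endosperm carried a summed v of 4354 to 137618 over 8 endosperm markers, against 104 at 2 DAP, where the sum was no higher than the 108 of unpollinated kernels. At 6 DAP the sum was 26.0. The marker fl2 alone had v of 59.2 at 2 DAP, 55.0 in unpollinated kernels and 0.037 at 6 DAP. The sum in whole kernels is therefore not read as a measure of endosperm. The change of tissue between 6 and 8 DAP and the change of stage cannot be told apart.

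The set was small and mostly of low level. Of 19942 models that reached v = 10 at some stage, 1875 (9.40%) were highest at 2 DAP, and the 85 members were 4.53% of those. Scaling by library totals in place of TMM gave 166 models by the same rule, 82 of the members among them. The v of members at 2 DAP had a median of 23.9 and ran between 10.4 and 498, with 63 members below 40 and 9 at 100 or above. The ratio of v + 1 at 2 DAP to the median stage had a median of 5.90 and a highest value of 42.5. RefSeq tied 29 members (34.1%) to 1 gene record, all of them protein-coding, against 56.4% of all 1875 models highest at 2 DAP. The share was not particular to 2 DAP. The same rule applied to the other stages gave 49.2% at 0 DAP, 45.8% at 3 DAP, 32.0% at 4 DAP and 51.5% at 6 DAP. In endosperm it gave 34.1% at 8 DAP, 43.1% at 10 DAP and 32.1% at 12 DAP. Of the 4 members with a symbol, only krp13 (GRMZM2G034828), a kinesin-related protein, has a name that tells its function. The others are IDP152, umc1611 and si606015d04, which are names of markers or clones. Most members are therefore known here by identifier only.

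**Figure D1:**
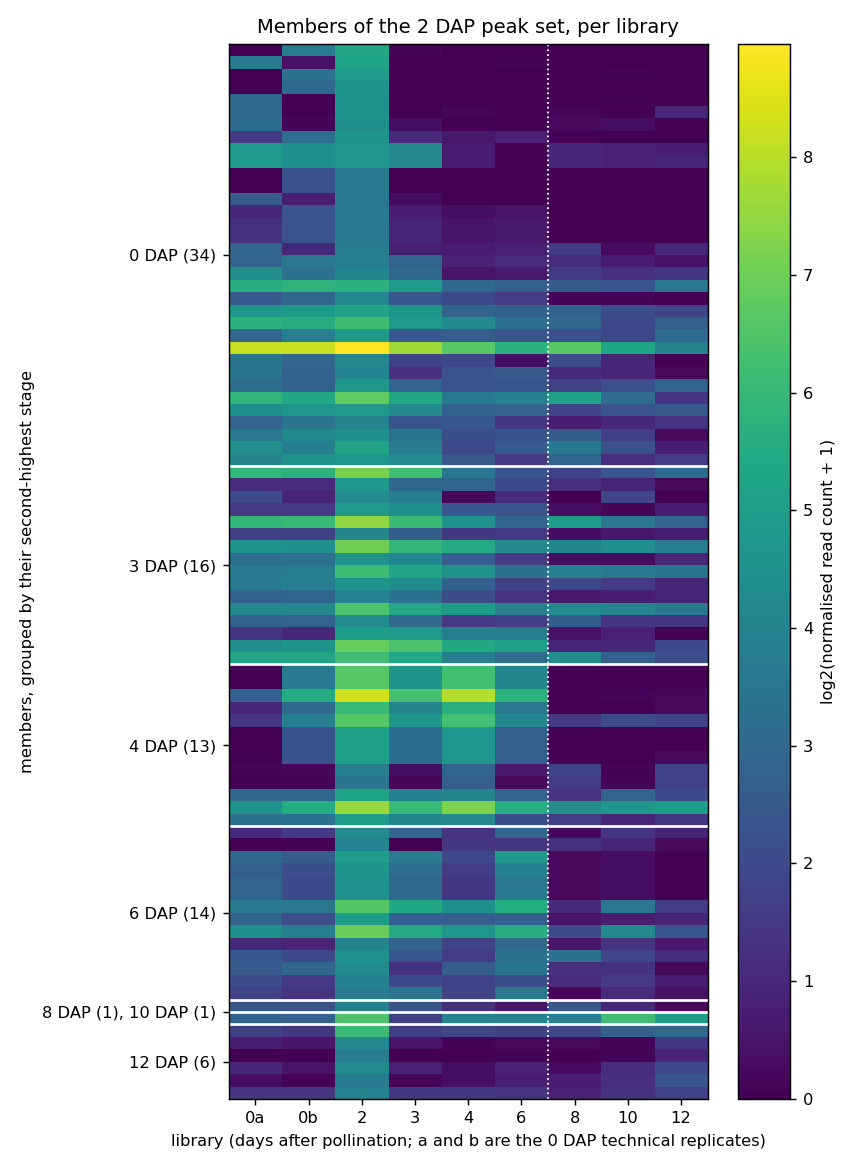
Each row is 1 of the 85 members and each column 1 library, with whole kernels left of the dotted line and endosperm right of it. Colour is log2(v + 1). Rows are grouped by the second-highest stage, which was 0 DAP for 34 members and 12 DAP for 6, the latter on 5 to 42 reads at 12 DAP.

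The members differed in what surrounded the peak. The second-highest stage was 0 DAP for 34 members, 3 DAP for 16, 4 DAP for 13, 6 DAP for 14, 8 DAP for 1, 10 DAP for 1 and 12 DAP for 6. Those 6 rested on 5 to 42 reads at 12 DAP, in a library with a TMM factor of 0.156. The whole-kernel libraries had factors of 1.36 to 1.61, and a smaller factor gives a higher v for the same share of reads. The place of 12 DAP as second therefore depends on the scaling. In 9 members the second-highest stage reached at least 80% of the 2 DAP level. In 22 members 2 DAP was at least 4 times any other stage, with the 0 DAP replicates summed. Of the 22, 10 differed between the technical replicates by more than 4-fold as described below, and 9 lay in groups of models with proportional counts. Neither held for 8, and 1 had a RefSeq record. GRMZM2G468521, 1 of the 22, had v of 35.7 at 2 DAP, 12.0 in replicate a and 0.35 in replicate b. A fall at each of 3, 4 and 6 DAP was seen in 24 members, while 39 were higher at 6 DAP than at 4 DAP. No minimum level was set for either count, and the share over all models was not counted. GRMZM2G039723 is among the 39 with 0 reads at 4 DAP and 1 at 6 DAP. GRMZM5G886855 is not among the 24, because it had 360 reads at 2 DAP and 0 at each of 3, 4 and 6 DAP. In dissected endosperm 33 members stayed under v = 1 at all 3 stages and 13 reached v = 10 at one or more.

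The most counted member was GRMZM2G115812, whose v was 296, 498, 203, 98.0, 52.1, 99.5, 38.6 and 15.1 at 0, 2, 3, 4, 6, 8, 10 and 12 DAP. It was already high before pollination, and its technical replicates gave 297 (a) and 296 (b). Its 2 DAP level was 1.68-fold its 0 DAP level (95% interval 1.65 to 1.72) and 2.45-fold its 3 DAP level (2.38 to 2.52). GRMZM2G397509 (LOC100277214) had v of 63.7, 179, 67.7, 23.3, 6.48, 30.9, 10.9 and 5.98 over the same stages, which was 2.80-fold (2.69 to 2.92) at 2 DAP relative to 0 DAP. GRMZM2G080843 (LOC100383728) had 57.3, 142, 75.7, 11.2, 4.10, 2.30, 4.09 and 8.09, a ratio to the median stage of 13.5 and 2.48-fold (2.38 to 2.59) at 2 DAP relative to 0 DAP. These members stood above their neighbouring stages by a modest fold, and their levels at 4 DAP and later set the median against which they were selected.

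The kinesin-related gene krp13 was also present before pollination and highest at 2 DAP. Its v was 37.3, 71.9, 40.3, 13.8, 8.49, 20.4, 5.72 and 3.52, with technical replicates of 37.1 (a) and 37.5 (b). The 2 DAP level was 1.93-fold that of 0 DAP (1.82 to 2.04) and 1.78-fold that of 3 DAP (1.67 to 1.91). It lay just inside the selection limit, with a ratio of 4.04. A second, smaller maximum at 8 DAP, defined as v of at least 5 and at least 2 times both 6 and 10 DAP, was seen in 6 members: krp13, GRMZM2G397509, GRMZM2G100473, GRMZM2G073003, GRMZM2G157616 and GRMZM2G480480. The same holds for 72 (3.84%) of the 1875 models highest at 2 DAP. GRMZM2G073003 (LOC100283561), for example, had v of 47.7, 108, 40.3, 11.3, 14.1, 33.9, 8.11 and 1.58.

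Other members rose further above 0 DAP. GRMZM2G470499 (LOC100279767) had v of 22.6, 128, 58.3, 44.0, 17.7, 16.3, 20.1 and 12.5, and was 5.68-fold (5.35 to 6.03) at 2 DAP relative to 0 DAP. GRMZM2G099467 (LOC100284800) had 1.2, 26.6, 6.89, 6.44, 3.06, 1.31, 0.88 and 0.18, and was 22.1-fold (17.6 to 28.0). GRMZM2G339645 (LOC100281536) had 1.78, 27.8, 21.2, 4.42, 3.84, 0.26, 0.13 and 0.70, and was 15.6-fold. The last of these kept most of its 2 DAP level at 3 DAP, and all 3 were lower at each later whole-kernel stage than at the one before. GRMZM2G123063 also kept to 3 DAP, with v of 114.5 at 2 DAP and 85.9 at 3 DAP (1.33-fold), and was at 0.89 by 8 DAP. GRMZM2G356817 had 16.6, 118, 43.3, 25.4 and 46.6 at the whole-kernel stages, 7.12-fold at 2 DAP relative to 0 DAP. GRMZM2G352855 (LOC100274532) instead had a second high at 6 DAP, with v of 31.5 at 2 DAP, 12.5 at 3 DAP, 2.97 at 4 DAP and 27.2 at 6 DAP.

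**Figure D2:**
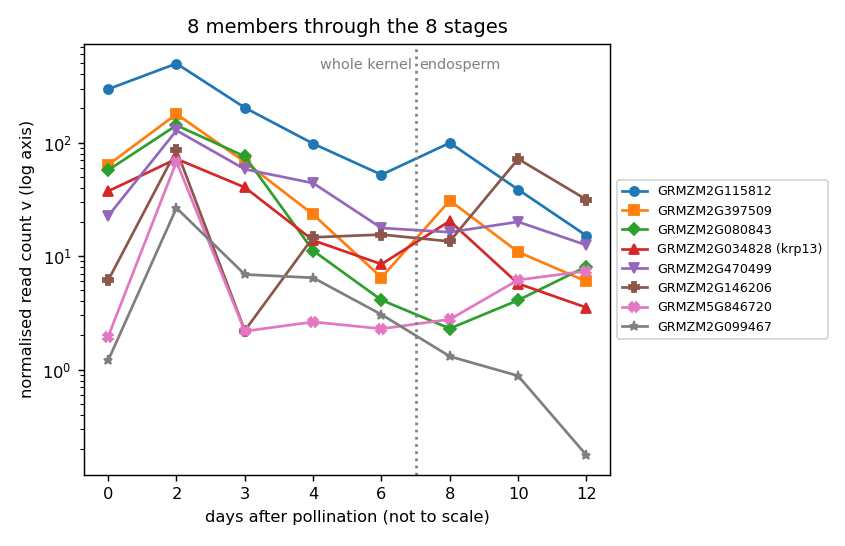
v of 8 members at each stage on a log axis, 1 sample per stage, with whole kernels left of the dotted line. GRMZM2G115812 moves from 498 at 2 DAP to 15.1 at 12 DAP, whereas GRMZM2G146206 reaches 86.0 at 2 DAP and 71.9 at 10 DAP.

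A further kind of member was high in the 2 DAP library and low in the libraries on both sides. GRMZM5G846720 had v of 1.95, 68.0, 2.18, 2.63, 2.29, 2.77, 6.16 and 7.39, so that 2067 reads at 2 DAP stood against 64 and 69 in the 0 DAP replicates and 74 at 3 DAP. That is 34.8-fold (29.2 to 41.8) relative to 0 DAP and 31.2-fold (24.8 to 39.9) relative to 3 DAP. GRMZM2G146206 (LOC100280823) had 6.11, 86.0, 2.21, 14.6, 15.5, 13.5, 71.9 and 31.5, and was 39.0-fold (31.0 to 49.7) at 2 DAP relative to 3 DAP. GRMZM2G159191 had 380 reads at 2 DAP and none in either 0 DAP replicate or at 3 DAP, at least 284-fold higher than 0 DAP against a floor of 3 reads over the stage. GRMZM2G052460 had 457 reads at 2 DAP, against 0 and 1 in the 0 DAP replicates and 1 at 3 DAP. GRMZM2G019663 had 507 reads at 2 DAP, against 21 and 18 in the 0 DAP replicates and 13 at 3 DAP, 29.1-fold (21.0 to 41.5) relative to 0 DAP. GRMZM5G846720, GRMZM2G159191, GRMZM2G052460 and GRMZM2G019663 stayed low in the later libraries, whereas GRMZM2G146206 was high again at 10 DAP. GRMZM2G126048 (LOC100381918) had v of 10.4 at 2 DAP, 0.15 at 3 DAP and 5.33 at 4 DAP, and GRMZM2G157190 had 13.8, 0.26 and 6.34 at those stages. A level that is high in 1 library and low a day later was measured in 1 sample only, so a difference of that sample and a difference of the stage cannot be told apart.

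The choice of stages mattered for membership. When only the 5 whole-kernel stages were used for the maximum and the median, 38 genes met the rule and 34 of them were members. The other 51 members reached the ratio only with the endosperm libraries in the median, krp13 and GRMZM2G115812 among them. Of the 34, 8 had a RefSeq record, 13 differed between the technical replicates by more than 4-fold as described below, 10 lay in groups of models with proportional counts, and 17 did neither.

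Some members had counts in fixed proportion. In 5 groups holding 16 members, the counts of linked models followed 1 fixed multiple, fitted over all libraries, to within 2% or 3 reads in every library (3 reads times the multiple where it exceeded 1), which left 74 distinct profiles among the 85 members. In the first group GRMZM5G886855 and GRMZM2G039780 had 360 reads at 2 DAP, GRMZM2G039723 had 720, GRMZM5G844045 had 900 and GRMZM2G445789 had 1260. The 0 DAP replicate b held 144, 144, 288, 360 and 504 reads for these models in the same order, replicate a held none, and no later library held more than 3. A further 4 models with 180 reads at 2 DAP had the same profile but stayed below v = 10. A total of 5 members had exactly 360 reads at 2 DAP. In the fourth group GRMZM2G162845 had 720 reads at 2 DAP and 324 in replicate b, exactly 2 times the 360 and 162 of GRMZM2G162836. GRMZM5G883510 and GRMZM5G821433 of the fifth each had 360 reads at 2 DAP, 156 in replicate b and 42 in replicate a. Models of 1 group are not independent observations, and whether the same reads were counted in each was not tested.

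The second group had a course with a dip at 3 DAP. AC199703.3_FG004, GRMZM2G492268 and AC199703.3_FG003 each had 995 reads at 2 DAP, 270 at 3 DAP and 749 at 4 DAP, GRMZM2G051332 had 2985, 810 and 2247, and GRMZM2G119460 had 2989, 810 and 2265. In v, GRMZM2G051332 had 6.61, 98.2, 23.8, 75.8 and 16.1 at 0, 2, 3, 4 and 6 DAP and no read in dissected endosperm. GRMZM2G014844 (LOC100281760) followed the same course outside the tolerance, with v of 28.2, 328, 79.6, 252, 53.8, 0, 0.13 and 0.18. The order of the whole-kernel stages was alike in GRMZM2G325687, AC199703.3_FG001 and GRMZM2G325643. GRMZM2G325643 differed in endosperm, with v of 20.7, 24.7 and 31.8 at 8, 10 and 12 DAP. In the whole set 15 members with v of at least 1 at 4 DAP were there at least 2 times as high as at 3 DAP, which 6.24% of the models with v of 10 at a stage also were. The 15 include the second group and the other models of like course named above, so they are not 15 independent profiles.

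**Figure D3:**
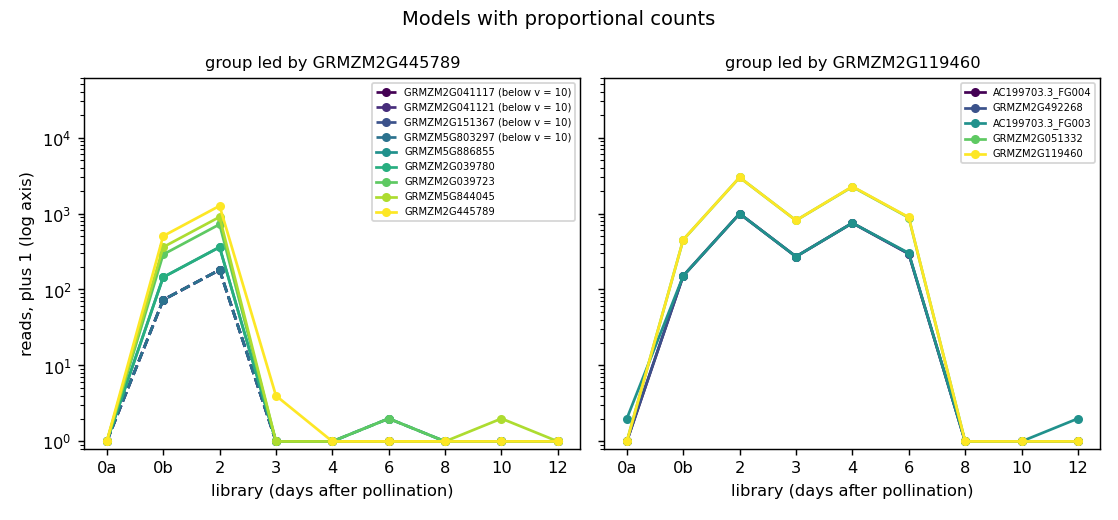
Reads per library, plus 1, on a log axis for the first and second groups of models with proportional counts. Dashed lines are models below v = 10, and lines with equal counts lie over each other. The first group has reads in 0 DAP replicate b and at 2 DAP and none in replicate a, and the second dips at 3 DAP.

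The technical replicates of 0 DAP are of 1 biological sample, so they show how repeatable a count was. Of 75 members with at least 100 reads over the pair, 19 (25.3%) had a 95% interval of the normalised ratio of b to a that lay beyond 4-fold, 6 of them higher in a and 13 higher in b. Among all models with v of 10 at a stage and as many reads in the pair, 126 of 18876 (0.668%) did. Among models with a mean 0 DAP level of 1 to 10, the counts were 18 of 50 members (36%) and 93 of 5441 models (1.71%), a share higher among the members than among models of like level. Outside the proportional groups 9 members differed in this way, and with each group counted once 11 of 64 (17.2%) did. GRMZM2G014844 was 8.36-fold higher in b than in a, with 1767 reads in b and 153 in a, and GRMZM2G468514 had 684 reads at 2 DAP, with 0 in b and 216 in a. GRMZM2G168702 had 684 reads at 2 DAP with 1 in b and 216 in a, GRMZM2G468521 had 1085 with 14 and 342, and GRMZM5G864877 had 628 with 4 and 231. GRMZM2G468514, GRMZM2G168702, GRMZM2G468521 and GRMZM5G864877 had at most 9 reads in any library after 2 DAP. GRMZM2G157675 (IDP152) had 39 reads in b and 182 in a. For these members the 0 DAP level is not repeatable within 1 biological sample, and the fold at 2 DAP relative to 0 DAP carries that uncertainty.

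The same selection applied to other stages gave different shares. It found 185 models at 0 DAP with 0.541% of those with enough reads beyond 4-fold in the pair, 48 at 3 DAP with 8.57% (3 of 35), 75 at 4 DAP with 18% (9 of 50), 344 at 6 DAP with 1.12%, 308 at 8 DAP with 7.35%, 371 at 10 DAP with 0.851% and 710 at 12 DAP with 0.299%. Of the 12 members with the largest ratio to the median stage 7 lay beyond 4-fold in the pair, and of the 12 with the highest v at 2 DAP 4 did. Without the 19 members 66 remained, 27 of them with a RefSeq record, and without the proportional groups as well 60 remained.

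**Figure D4:**
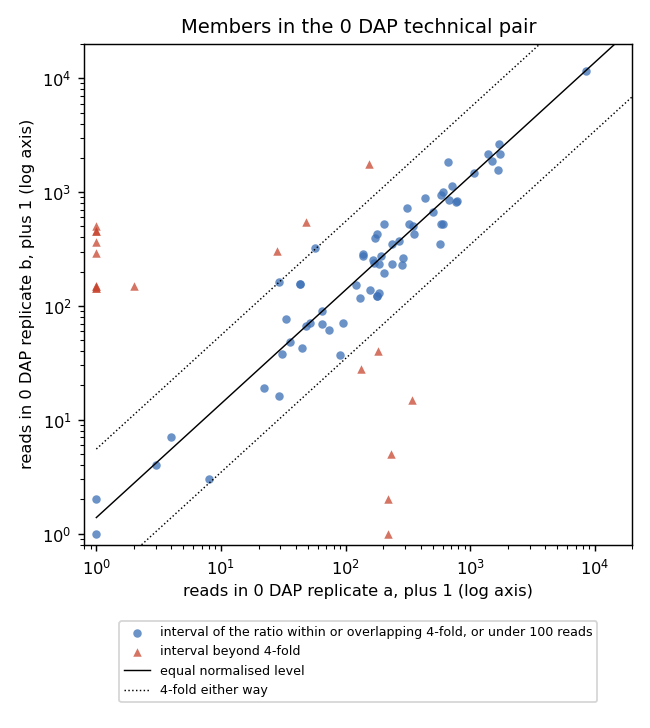
Reads of each member in 0 DAP replicate a (horizontal) and b (vertical), plus 1, on log axes, where the solid line marks equal normalised level and the dotted lines 4-fold. The 19 red triangles have an interval beyond 4-fold, 13 higher in b and 6 higher in a.

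A pairwise rule of size was also applied: the ratio of v + 1 had to be at least 4, the higher v at least 10, and the 95% interval had to exclude 1. Relative to 0 DAP, 50 members passed as higher at 2 DAP and none as lower, where 173 of 15204 models (1.14%) passed as higher and 258 (1.7%) as lower. Relative to 3 DAP, 33 members passed as higher and none as lower, where 144 of 14950 models (0.963%) were higher and 155 (1.04%) lower. With library totals 433 models were lower relative to 0 DAP, and 230 were higher and 236 lower relative to 3 DAP. The members' counts follow from the selection and are no support for it. Both comparisons were passed by 23 members and neither by 25. In 14 members the 2 DAP level was less than 2-fold that of 0 DAP, and in 5 it was less than 1.2-fold. AC208110.2_FG006 was one of the 5, with v of 52.9 at 2 DAP and 52.2 at 0 DAP (1.01-fold, 0.954 to 1.07). GRMZM2G433844 was another, at 24.5 and 23.4 (1.05-fold, 0.959 to 1.14), and its counts ran with those of GRMZM2G132077 (umc1611) in every library. For these the interval of the ratio included 1, so the order of 2 and 0 DAP is not resolved at this depth.

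Genes of cell division were looked at beside krp13, from lists chosen by symbol. Of 9 histone genes with v of 10 at a stage, 8 (88.9%) were highest at 2 DAP, where 9.40% of all such models were, and the median log2 ratio of 2 DAP to the median stage was 0.76 for the list and 0.00 over all models. No histone gene was a member, and 4 of the 9 had a ratio of at least 2. Of the 8, hon110, hon101 and his1a exceeded their 3 DAP level by only 1.05-fold, 1.05-fold and 1.03-fold. The largest fold over 0 DAP in the list was that of his2b5, which had v of 65.6, 181, 126, 82.9, 64.0, 137, 77.7 and 24.3 and was 2.76-fold at 2 DAP relative to 0 DAP (2.65 to 2.87). The gene named H1 (his1) was the only one of the 9 not highest at 2 DAP. It was highest at 3 DAP, and at 2 DAP it was 0.956-fold (0.902 to 1.01) relative to 0 DAP. Histones are multigene families, and reads may be shared among their copies. Of 7 genes with a krp symbol, a list kept apart from the 43 others, 3 (42.9%) were highest at 2 DAP, namely krp13, krp1 and krp11. The median log2 ratio of the list was 0.74. Both values include krp13, which was selected for its peak. The 2 DAP level of krp11 was only 1.03-fold its 3 DAP level, and that of krp1 1.13-fold its 0 DAP level (1.05 to 1.21).

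**Figure D5:**
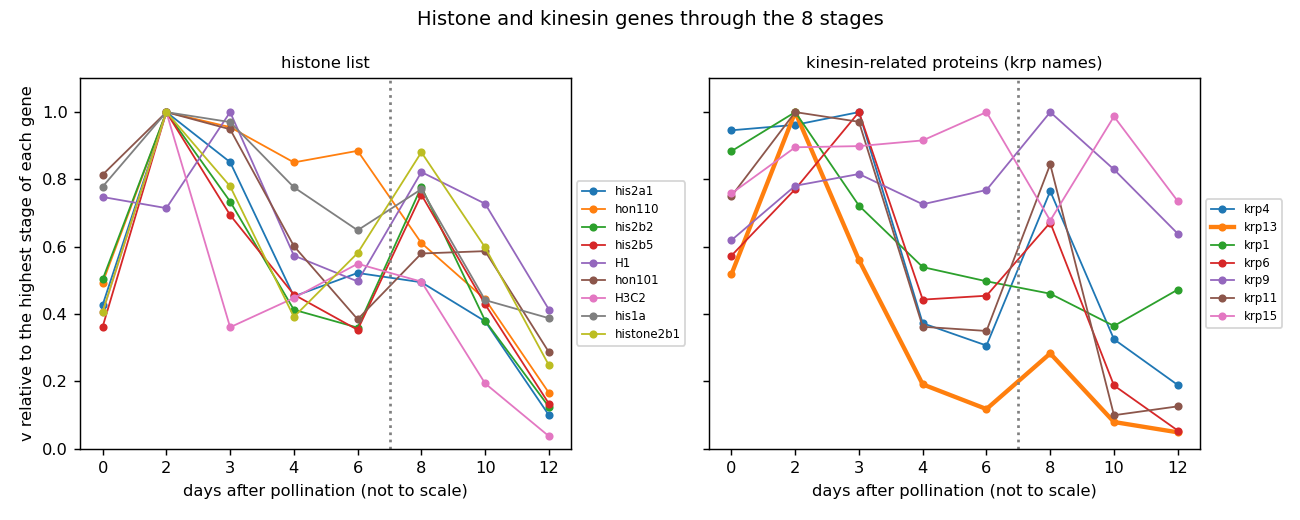
v of each gene relative to its own highest stage, for 9 histone genes (left) and 7 kinesin-related genes with a krp symbol (right), with whole kernels left of the dotted line. In the left panel 8 of 9 lines peak at 2 DAP, 3 of them by 1.03-fold to 1.05-fold over 3 DAP, and in the right panel krp13, drawn thicker, is the only member of the 2 DAP set.

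No other list held a member beside krp13, and differences between lists were not tested. Over all models with v of 10 at a stage, 9.40% were highest at 2 DAP. In the lists this held for 6 of 17 cell cycle genes, 7 of 29 auxin genes, 4 of 19 MADS genes and 4 of 19 peroxidase and redox genes. It held for 4 of 21 cytoskeleton genes, 4 of 22 abscisic acid and water genes, 4 of 25 signalling genes, 4 of 26 defence genes and 5 of 38 chromatin genes. In smaller lists it held for 2 of 4 pollen genes, 2 of 8 photosynthesis genes, 2 of 9 bHLH genes, 2 of 11 cell wall expansion genes and 1 of 8 DNA replication genes. These counts are small, and whether any of these lists differs from the share over all models was not tested. The highest stage was 2 DAP for none of 21 jasmonate genes, 17 heat shock genes, 27 zeins and 11 ribosomal protein genes. Genes with a functional symbol that fell short of the ratio of 4 are named from their values, not by the rule for names. The cyclin gene cyc3 had a ratio of 3.65 and v of 8.61, 16.6, 4.30, 2.36, 3.37, 10.7, 1.45 and 0.18. BX3, a cytochrome P450 of benzoxazinoid defence compounds, had a ratio of 3.59 and v of 9.71, 55.9, 26.0, 19.9, 24.4, 2.04, 0.88 and 0.53. Others were HMG5 at 3.79 and the homeobox gene kn1, which acts in shoot meristems, at 3.42. HMG5 had v of 30.8 at 2 DAP against 29.2 at 0 DAP, so its ratio came from lower levels at later stages. The v of kn1 was 10.1 at 2 DAP, near the minimum, against 6.43 at 0 DAP and 6.92 at 3 DAP.

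The limits of the set cut through a continuous range. Just inside the ratio limit lay GRMZM2G480480 (4.03), krp13 (4.04) and GRMZM2G123063 (4.05), and just outside lay GRMZM2G155232 (3.98), GRMZM2G143253 (3.98) and GRMZM2G002830 (3.94). At the level limit, GRMZM2G126048 (v of 10.4), GRMZM2G058050 (11.3) and GRMZM2G039780 (11.8) were inside, and GRMZM2G040598 (9.87), GRMZM2G124417 (9.74) and GRMZM2G367701 (9.64) outside. Neighbours were looked for only among members with a RefSeq record. Members without one, such as AC199703.3_FG001, AC199703.3_FG003 and AC199703.3_FG004, were not placed. Of the members with a record, GRMZM2G157616 and GRMZM2G157675 were next to each other in gene order, the only pair of these within 10 genes. Their v at 2 DAP and 0 DAP was 36.6 and 16.2 for GRMZM2G157616, and 12.6 and 3.25 for GRMZM2G157675.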

How the data were processed

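Each library came as 1 file of whole-number read counts per gene model, deposited by the authors without normalization. Poly(A) RNA was sequenced on the SOLiD platform, per the labels' protocols. The submitters' processing notes name bedtools. The aligner, genome build, annotation and handling of multiply mapping reads: not given in the sources used here. Library sizes were scaled with edgeR 4.0.16 (TMM, R 4.3.3), and v is CPM of effective reads, with the 0 DAP replicates summed and a pseudocount of 1. Other computations used scipy 1.17.1, numpy 2.4.6, pandas 2.3.3, matplotlib 3.10.9 and Python 3.11.15. Gene names came from RefSeq, assembly Zm-B73-REFERENCE-NAM-5.0, used without coordinates: 18266 models matched 1 record and 5705 had a usable name. The members, the 43 gene lists and the comparisons were chosen with earlier results of these data known. Members named are those with the 12 largest ratios or 12 highest levels, a usable name, a place at the limits, or a place in lists, groups or neighbouring positions, and any other named gene was picked from its values. The counting rules were tested on simulated data. Alternatives covered size factors of DESeq2 1.42.0, totals of each library, other limits and pseudocounts, thinned counts and single replicates.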

Additional observations from a re-analysis of the deposited data

How the results depend on the processing

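The set held 85 members, of which 83 were kept with DESeq2 size factors, 81 with counts thinned to the smallest library total and 85 with a pseudocount of 0.1. With library totals in place of TMM it held 166 (82 of the 85 kept), with no minimum level 165, with a minimum of 20 54, with a ratio of 2 444, with a ratio of 8 23, and over whole-kernel stages alone 38. Without 0 DAP replicate a it held 87, and without b 83. Models higher at 2 DAP than at 0 DAP numbered 346 with no minimum, 101 with a minimum of 20, 1125 with a ratio of 2 and 61 with a ratio of 8. Models lower at 2 DAP numbered 433 with library totals, 472 with no minimum, 159 with 20, 1212 with a ratio of 2 and 73 with 8. Relative to 3 DAP, higher models numbered 230 with library totals, 331 with no minimum, 76 with 20, 549 with a ratio of 2 and 61 with 8. Lower models there numbered 236, 350, 74, 614 and 57 under the same changes. Chosen after seeing the data, counting each proportional group once left 74 members. Of the 64 of these with at least 100 reads in the technical pair, 11 (17.2%) lay beyond 4-fold. The causes were not tested. For 39 named members, 7 of the 14 settings can move the ratio to the median stage. Of 273 values under these, 118 moved by more than their counting interval and 155 did not. None fell below a ratio of 1, but the members were selected for a ratio of at least 4, so this is no support for them. No paired analysis was possible because only 0 DAP has more than 1 library.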
